A study of Homo sapiens with 6 samples.

Results

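7SK is a small nuclear RNA made by RNA polymerase III, and 2 of the 142 RNA rows in the authors' deposited table cover its gene. They were taken by name: RN7SK, which the authors class as Pol III, and AL162581.1, which they class as others. The 3′ ends of newly made small RNA were read in 6 libraries of HEK 293T-REx TOE1-degron cells, a line derived from human embryonic kidney in which TOE1, a 3′ exonuclease, carries a tag for auxin-induced degradation. The 3 TOE1-present (TOE1+) libraries come from control cells, and the 3 TOE1-depleted (TOE1-) libraries from cells kept in 600 µM indole-3-acetic acid for 8 hours. All groups share the degron allele and an 8 hour incubation in 0.2 mM ethynyl uridine, which marks new RNA for capture. Whether the control cells received a vehicle, and whether replicates are separate cultures, is not given in the sources used here, so each p-value rests on library-to-library spread that may be technical.

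TOE1-depleted replicates 2 and 3 were ligated to the 3′ adaptor AG11, and the other 4 libraries to AG10. The table's counts summed to between 32813 and 75353 reads per library. TOE1 itself is not among the RNAs analysed here, so its depletion was not checked.

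7SK is known as the scaffold of a ribonucleoprotein that holds the elongation kinase P-TEFb inactive through HEXIM proteins. Its 5′ end is capped by MEPCE, and its 3′ end, a run of U left by RNA polymerase III termination, is bound by LARP7. A post-transcriptional adenosine is known on part of the 7SK pool, so its end is described both with the untemplated tail (the total end) and without it (the genome-templated end).

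The 2 gene models lie on the same strand and differ by a few bases at each end, and the last bases are shown because every end position is counted from them. In hg38, GENCODE 44 places RN7SK (ENSG00000283293, snRNA, 1 exon of 328 nt) at chr6:52995621-52995948 on the plus strand. AL162581.1 (ENSG00000202198, named 7SK in GENCODE 44 and typed misc_RNA, 1 exon of 331 nt) lies at chr6:52995620-52995950, so it contains RN7SK and ends 2 nt further downstream. The RefSeq model of 332 nt ends 3 nt beyond RN7SK. The genomic sequence below is chr6:52995852-52995971, plus strand, 5′ to 3′, with the 5 bases in capitals running from 1 base before the RN7SK end to the RefSeq end.
7SK 3′ end: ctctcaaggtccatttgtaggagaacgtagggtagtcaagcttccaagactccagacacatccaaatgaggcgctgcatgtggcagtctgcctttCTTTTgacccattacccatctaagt
The second capital is the last base of RN7SK, the fourth that of AL162581.1 and the fifth that of RefSeq. Placing the table's positions on this sequence assumes that the authors' models end where those of GENCODE 44 do; their annotation is not given in the sources used here.

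Almost all 7SK reads of replicate 1 were counted on AL162581.1, and none of those of replicates 2 and 3 were. AL162581.1 held 3533 reads in TOE1-present replicate 1 and 6348 in TOE1-depleted replicate 1, and 0 in each of the other 4 libraries. A count of 0 allows a share of up to 0.00868% of the table's reads in TOE1-present replicate 2, against 6.19% in TOE1-present replicate 1; intervals and limits of this kind cover counting error only. RN7SK held 242, 202 and 201 reads in TOE1-present replicates 1 to 3, and 260, 195 and 271 in the TOE1-depleted ones. RN7SK thus had reads in every library, at 0.345% to 0.594% of the table's reads, while AL162581.1 had reads in 1 library of each group.

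Within replicate 1, AL162581.1 took 93.6% of the reads on both rows in the TOE1-present library (95% exact Clopper-Pearson interval 92.8 to 94.3) and 96.1% in the TOE1-depleted one (95.6 to 96.5). Its reads outnumbered those of RN7SK by 14.6 times and 24.4 times in these libraries. Of the 90 rows with at least 100 reads, AL162581.1 was the 1 row with reads in replicate 1 alone, and RMRP ENSG00000269900, a model of the RNase MRP RNA, was the 1 row with none there. The other RMRP row, RMRP ENSG00000277027, had 87.5% of its reads in replicate 1 and AC024051.4 had 98.8%, against 36.6% for RN7SK and a median of 37.5% over the 90 rows. How reads that fit both models were assigned is not given in the sources used here, and its part in this pattern was not tested.

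**Figure D1:**
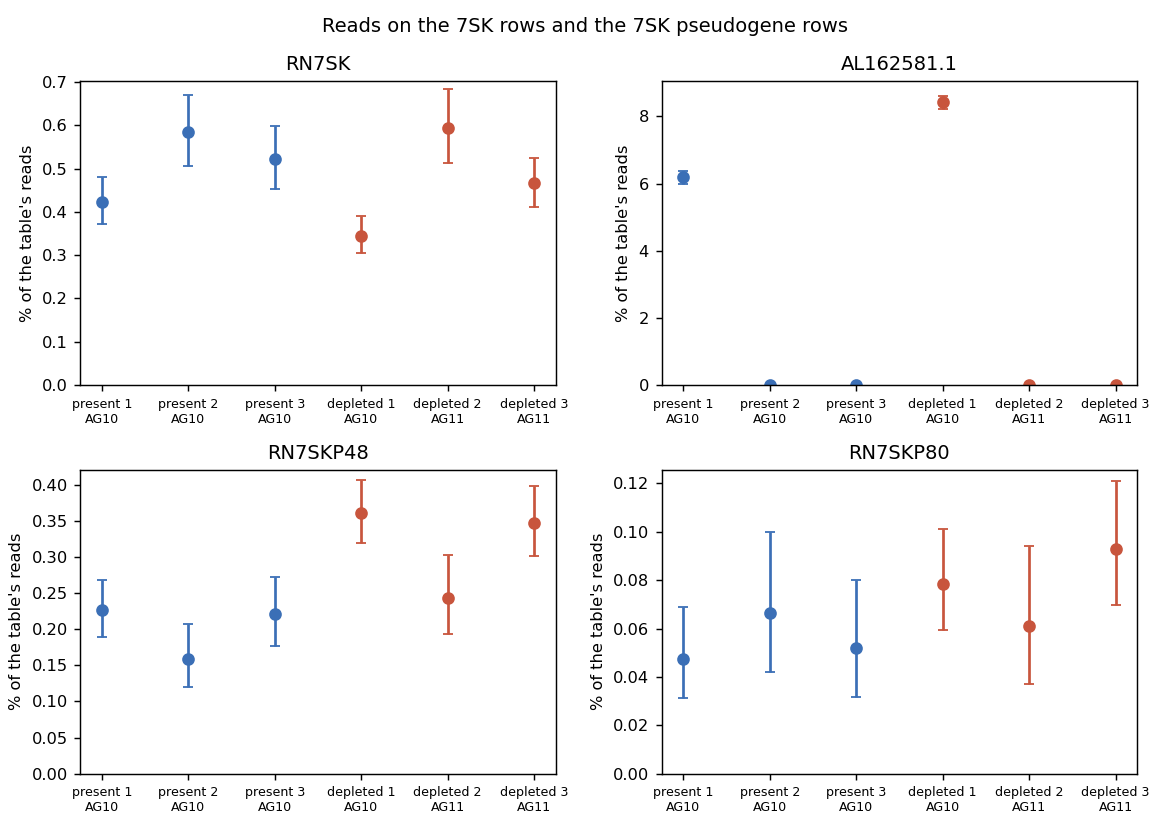
Share of the table's reads (%) on RN7SK, AL162581.1 and the pseudogene rows RN7SKP48 and RN7SKP80 in each library, with 95% exact binomial intervals; blue points are TOE1-present and red points TOE1-depleted, with the adaptor under each replicate. AL162581.1 reaches 6.19% and 8.42% in the replicate 1 libraries and 0% elsewhere, while RN7SK stays between 0.345% and 0.594%.

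The first question was whether the level of 7SK differed with TOE1 depleted, taken first on the RN7SK row. In the replicate 1 libraries that row held 6.41% (TOE1-present) and 3.93% (TOE1-depleted) of the reads on both 7SK rows. Its values thus describe that row and not the whole of 7SK, and the sum of both rows is given below. The RN7SK row stood at 5718, 6294 and 6851 CPM (read counts scaled to a common library size, here with TMM, a factor per library set by the bulk of the RNAs) in the TOE1-present libraries and at 3821, 4716 and 3335 in the TOE1-depleted ones. The groups did not overlap, with means of 6287 ± 566 and 3957 ± 701 (SD, n = 3). The log2 difference was -0.67 ± 0.17 (SE; 95% interval -1.07 to -0.27), and edgeR's quasi-likelihood test gave an adjusted p of 0.0508 over 101 RNAs, so it missed the threshold of 0.05. Of all RNAs tested, 7.92% passed in either direction, 2.97% were lower with TOE1 depleted, 14.9% had groups that did not overlap in that direction, and 31.7% in either.

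The size of this difference rested on the scaling. With library totals in place of TMM, RN7SK stood at 4240, 5841 and 5219 CPM against 3450, 5943 and 4660, the groups overlapped, and the log2 difference was -0.12 (edgeR adjusted p = 0.727). With that scaling 31 RNAs were called higher and 0 lower, against 5 and 3 under TMM and 4 and 8 with DESeq2 size factors in edgeR. It moved the median of all 101 RNAs by 0.53 on the log2 scale, and relative to the median RNA the RN7SK difference was -0.73 under both, with 10 RNAs lower. A factor per library shifts every RNA by nearly the same amount. That likeness was therefore fixed in advance and cannot tell which scaling is right. With the replicate number as a block the difference was -0.68 and the edgeR adjusted p 0.0150. The block takes same-numbered libraries as pairs. Without the 7SK, RMRP and AC024051.4 rows, their deviations from the group means correlated at only 0.0228, 0.00525 and 0.144. Leaving out replicate 1 of both groups, where the AL162581.1 reads lie, left AG10 libraries with TOE1 present and AG11 libraries with TOE1 depleted. Condition and adaptor cannot be told apart there, and the RN7SK difference was -0.73 with an edgeR adjusted p of 0.0140. In the 4 AG10 libraries, with 1 TOE1-depleted library assumed to vary like the TOE1-present ones, it was -0.74 with an edgeR adjusted p of 0.167, and 0 of 112 RNAs passed. The values are levels relative to the other RNAs of the table. In bulk libraries such as these, less RNA per cell and a smaller share of cells with the RNA cannot be told apart.

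AL162581.1 had reads in too few libraries to pass the filter on low counts and was not among the 101 RNAs. Fitted with no filter, its log2 difference came to 0.048 ± 3.45 (SE; edgeR adjusted p = 0.999). Between the replicate 1 libraries its log2 ratio of TOE1-depleted to TOE1-present reads was 0.16 under TMM (95% counting interval 0.10 to 0.22) and 0.44 under library totals (0.39 to 0.50). These compare 2 libraries, not the conditions. The sum of both rows was carried by AL162581.1 in replicate 1: it reached 89198 and 97122 TMM CPM there, against 3335 to 6851 in the other libraries. Its log2 difference was -0.02 ± 1.56 (SE; 95% interval -3.77 to 3.74), with an adjusted p of 0.992 in edgeR. With the replicate number as a block, which takes up the level that replicate 1 shares between the groups, it was -0.46 ± 0.28 (SE; 95% interval -1.07 to 0.16; edgeR adjusted p = 0.360). Without replicate 1 of both groups the sum is the RN7SK row alone, at the -0.73 given above (edgeR adjusted p = 0.0140). Condition and adaptor cannot be told apart in that comparison.

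The other RNA polymerase III RNAs of the table gave the setting for this value. The pseudogene rows RN7SKP48 and RN7SKP80, which the authors also class as Pol III, are kept apart and described below. The list held 13 rows: the 7SL RNAs of the signal recognition particle, the RNase P and MRP RNAs, the Y and vault RNAs, U6 and U6atac. Of the 11 whose abundance could be tested, 2 were lower with TOE1 depleted by edgeR and 0 were higher, against 3 lower (2.97%) and 5 higher of all 101 RNAs, while 4 had an unadjusted p under 0.05, as did 27.7% of all RNAs. The 2 called lower were RN7SL1 at -1.10 and RN7SL3 at -1.13 on the log2 scale, and neither was called lower with library totals. RN7SL2 at -1.02 (edgeR adjusted p = 0.0508) and VTRNA1-3 at -1.38 (edgeR adjusted p = 0.0924) passed on the unadjusted p alone. The median log2 difference of the 11 was -0.27, against 0.08 over all 101 RNAs.

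**Figure D2:**
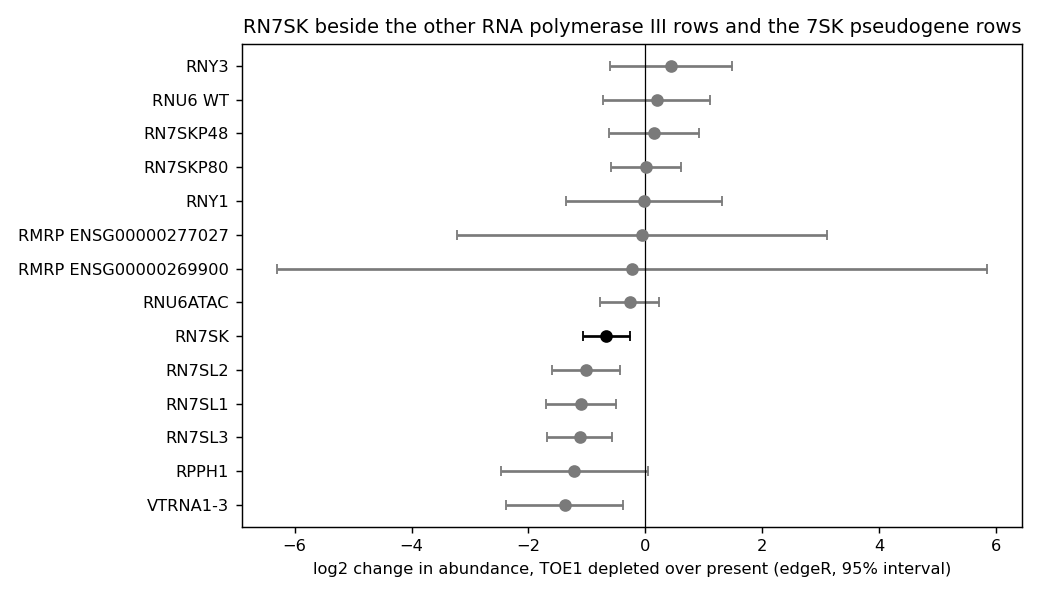
Log2 difference in TMM-scaled abundance (x axis, TOE1-depleted over TOE1-present, edgeR) with 95% intervals for RN7SK (black), the 11 other RNA polymerase III rows tested and the pseudogene rows RN7SKP48 and RN7SKP80 (grey). RN7SK lies at -0.67, between RNU6ATAC at -0.27 and RN7SL2 at -1.02, and the widest intervals are those of the RMRP rows.

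Among rows of at least 100 reads, the levels most like RN7SK over the 6 libraries were those of the box C/D RNA SNORD17 (Pearson r = 0.94 of log2 CPM), the Cajal body RNA SCARNA10 (0.93) and SNORD3 (0.87). The rows most like AL162581.1 were RMRP ENSG00000277027 (0.99), AC024051.4 (0.87) and SCARNA5 (0.38). The 6 points share library, group and scaling, so these values are descriptions.

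The mean genome-templated end of 7SK reads differed between the rows, and on the RN7SK row it differed between the conditions by less than the spread between libraries. As for abundance, the end and tail values of RN7SK describe that row and not the whole of 7SK. The end values per library were recovered from the deposited means, differences and p-values, as the processing account sets out. On RN7SK the mean templated end lay at -1.90, -2.02 and -1.76 nt from the annotated end in TOE1-present replicates 1 to 3, and at -1.89, -1.90 and -1.70 nt in the TOE1-depleted ones. The highest and lowest libraries, TOE1-depleted replicate 3 and TOE1-present replicate 2, lay close together, and the groups overlapped. In the authors' deposited table the difference was 0.0651 nt (95% interval -0.206 to 0.336), with an adjusted p of 0.876 over 139 RNAs and an exact 2-sided permutation p of 0.5, where 3 against 3 libraries cannot go below 0.1. Of these RNAs, 2.16% passed at an adjusted p of 0.05.

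The last base before the capitals of the 7SK sequence lies 2 nt upstream of the RN7SK end, next to where its mean templated end fell. On AL162581.1 the mean templated end was 0.104 nt past its own end in TOE1-present replicate 1 and 0.111 nt in TOE1-depleted replicate 1. Counted from the RN7SK end these means are 2.10 and 2.11 nt, next to the fourth capital. A mean need not be the base where most reads end. Within the same library, the AL162581.1 end lay 4.01 nt (TOE1-present) and 4.0 nt (TOE1-depleted) downstream of that of RN7SK. Reads of the same gene in the same library were thus split over rows whose mean templated ends lay about that far apart. The split was not tested further.

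**Figure D3:**
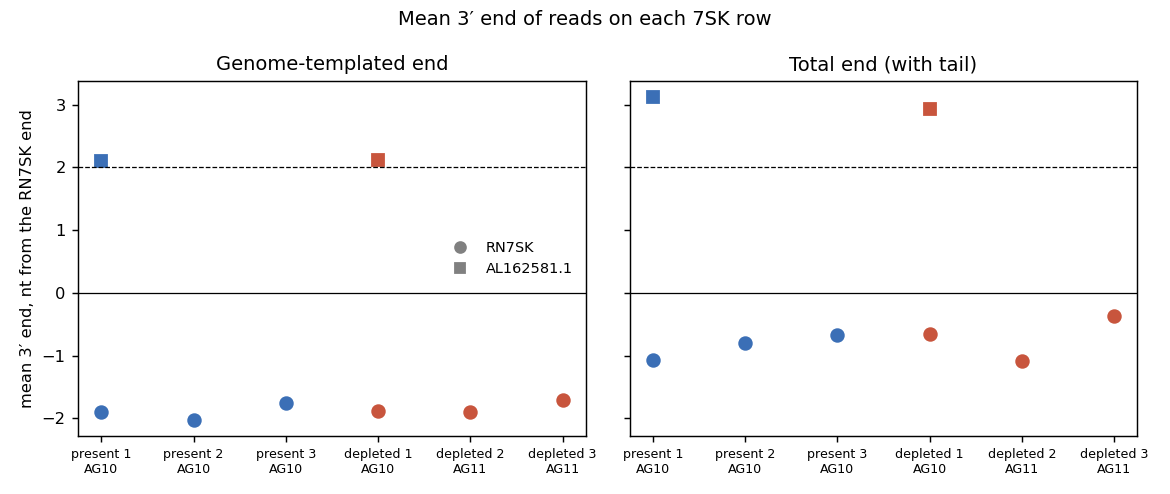
Mean 3′ end of reads on RN7SK (circles) and AL162581.1 (squares) in nt from the annotated RN7SK end (solid line) in each library, without the tail on the left and with it on the right; the dashed line is the AL162581.1 end, blue is TOE1-present and red TOE1-depleted. RN7SK templated ends lie between -2.02 and -1.70 nt in all 6 libraries, and AL162581.1 at 2.10 and 2.11 nt.

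Among the 90 rows of at least 100 reads, the templated difference of RN7SK was among the smaller ones and that of AL162581.1 the smallest. In size, 77 rows exceeded RN7SK and 89 exceeded AL162581.1, for which the authors' deposited table gives 0.00721 nt. The median size was 0.259 nt. The AL162581.1 value compares 1 library a group, while RN7SK and most other rows compare means of 3. For the 13 other RNA polymerase III rows the median templated difference was -0.07 nt, against -0.10 nt over all 139 RNAs, and 0 of the 13 passed on the deposited p-values, adjusted or not; unadjusted, 12.9% of all RNAs did. By limma's moderated test RN7SK had an adjusted p of 0.912, with 4 of 139 RNAs called.

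With the tail included, the RN7SK end lay at -1.07, -0.807 and -0.667 nt in the TOE1-present libraries and at -0.654, -1.09 and -0.373 nt in the TOE1-depleted ones. TOE1-depleted replicate 2 was the lowest of all 6 and TOE1-depleted replicate 3 the highest, so the groups overlapped. The difference in the authors' deposited table was 0.142 nt (95% interval -0.520 to 0.804), with an adjusted p of 0.863 and an exact permutation p of 0.6, against 2.16% of 139 RNAs called. Without TOE1-depleted replicate 3 it turned to -0.0239 nt. For AL162581.1 the mean total end was 1.12 nt past its own end in the TOE1-present library and 0.928 nt in the TOE1-depleted one. The authors' median total end with TOE1 present was 0 nt from its own end for RN7SK, against a mean of -0.847 nt. For AL162581.1 that median was 1 nt past its own end.

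The tail of RN7SK reads was mostly adenosine. Summed over the 4 bases it was 0.839, 1.21 and 1.09 nt per read in the TOE1-present libraries and 1.23, 0.810 and 1.33 nt in the TOE1-depleted ones. In TOE1-present libraries A made up 0.752 ± 0.0863 nt per read (SD, n = 3), U 0.152 ± 0.0604 nt, G 0.0766 ± 0.0363 nt and C 0.0683 ± 0.0358 nt. With TOE1 depleted, A stood at 0.809 ± 0.190 nt, U at 0.127 ± 0.0148 nt, G at 0.134 ± 0.0526 nt and C at 0.0555 ± 0.0359 nt. None of the 4 differences passed on the deposited p-values, with adjusted p from 0.758 to 0.90 and 0.787% of RNAs called for U and 0.0% for each other base, and their exact permutation p ran from 0.2 to 0.7.

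Tail shares are the authors' own, and how they treat tails of mixed bases is not given in the sources used here. Reads listed with 1 or more A in the tail were 43.4%, 49.01% and 48.3% of RN7SK reads in TOE1-present replicates 1 to 3, and 43.8%, 33.8% and 49.8% in the TOE1-depleted ones. TOE1-depleted replicate 2 stood apart as the lowest, and the other 5 libraries lay between 43.4% and 49.8%. The means were 46.9% ± 3.05 and 42.5% ± 8.07 (SD, n = 3). The difference in the authors' deposited table was -4.38 percentage points (95% interval -18.2 to 9.45), with an adjusted p of 0.543 and an exact permutation p of 0.7. Of 128 RNAs, 0.0% passed on the adjusted p and 21.1% on the unadjusted one. Without TOE1-depleted replicate 2 the difference was -0.0548 points.

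Longer A tails gave no call either. Tails of exactly 1 A, the commonest kind, were on 35.4% ± 1.52 of RN7SK reads with TOE1 present and 31.1% ± 5.72 with it depleted (exact permutation p = 0.3). Tails of 2 or more A were on 11.5% and 11.4%. Tails of 3 or more A were on 3.58% ± 0.352 and 5.45% ± 1.90, a difference of 1.87 points with an adjusted p of 0.542 on the deposited p-values. The shares of all RNAs called on these measures were 0.0%, 1.08% and 1.37%. Tails of both A and U were on 1.65%, 1.49% and 1.99% of RN7SK reads with TOE1 present, and on 3.46%, 2.05% and 2.58% with it depleted. These groups did not overlap, but they rest on 3 to 9 reads a library. Their exact permutation p was 0.1, the smallest possible, and the adjusted p 0.506 on the deposited p-values, against 0.0% of 41 RNAs called and 4.88% at an unadjusted p under 0.05.

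On AL162581.1 the A tails of the replicate 1 libraries stood far apart. Reads listed with 1 or more A were 1597 of 3533 in the TOE1-present library, or 45.2% (95% exact interval 43.6 to 46.9), and 1252 of 6348 in the TOE1-depleted library, or 19.7% (18.8 to 20.7). In the TOE1-depleted library these 6348 reads held 2581 A bases. Of them, 1197 were listed with exactly 1 A, 55 with 2 or more and 2 with 3 or more. The listed share thus leaves out reads with A in the tail. On RN7SK in the same libraries the shares were 43.4% (37.1 to 49.9) and 43.8% (37.7 to 50.1). The rows were 1.81 points apart in the TOE1-present library, with overlapping intervals, and AL162581.1 minus RN7SK was -24.1 points in the TOE1-depleted one. With 1 library a group there is no test across replicates, and condition and library cannot be told apart.

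Tails of exactly 1 A were on 38.7% of AL162581.1 reads in the TOE1-present library and 18.9% in the TOE1-depleted one, where RN7SK had 34.7% and 31.5%. Tails of 2 or more A were on 6.51% and 0.866%, where RN7SK had 8.68% and 12.3%. Tails of 3 or more A were on 15 and 2 AL162581.1 reads, or 0.425% (95% exact interval 0.238 to 0.699) and 0.0315%, where RN7SK had 3.31% (1.44 to 6.41) and 5.38%. For 3 or more A the intervals of the rows thus lay apart in the TOE1-present library too, on 15 AL162581.1 reads and 8 RN7SK reads. For 2 or more A they overlapped there, at 5.72 to 7.37 for AL162581.1 and 5.45 to 13.0 for RN7SK. A bases per AL162581.1 read were 0.691 and 0.407 nt, while G stood at 0.166 and 0.227 nt.

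**Figure D4:**
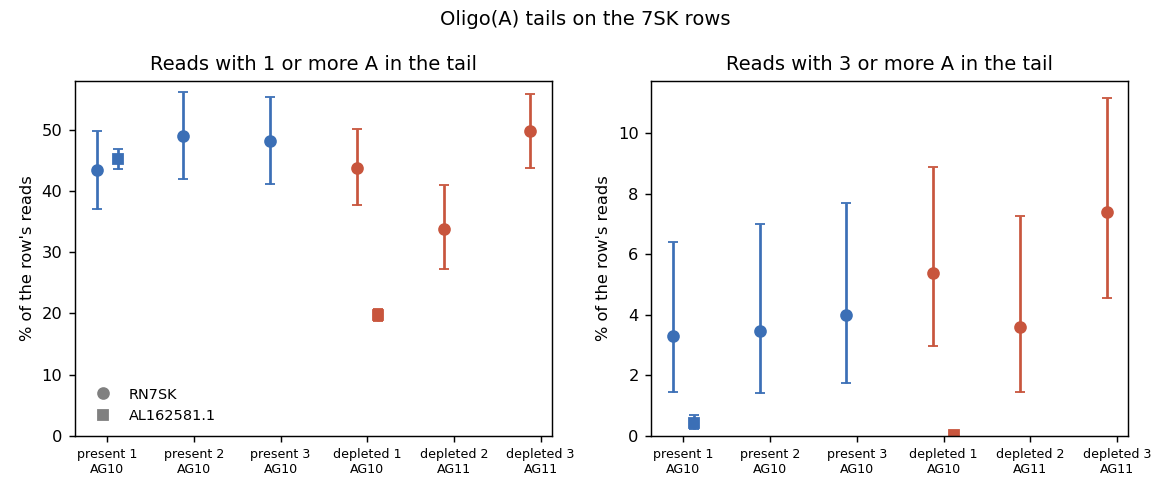
Share of reads (%) on RN7SK (circles) and AL162581.1 (squares) listed by the authors with 1 or more A (left) and 3 or more A (right) in the tail, per library, with 95% exact binomial intervals. Blue is TOE1-present and red TOE1-depleted. AL162581.1 is at 45.2% beside RN7SK at 43.4% in TOE1-present replicate 1 and at 19.7% beside 43.8% in TOE1-depleted replicate 1.

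Set against the 90 rows of at least 100 reads, 3 had a lower difference in A share than the -25.5 points of AL162581.1, and 66 had a lower one than RN7SK. The median was -9.30 points. The AL162581.1 value again compares 1 library a group, and most other rows compare means of 3. All 13 other RNA polymerase III rows of the list were below 0 in the authors' deposited table, as were 99 of the 128 RNAs. The median of the 13 was -11.1 points, against -9.57 over all 128 RNAs. Of the 13, 0 passed on the adjusted deposited p, with 3 at an unadjusted p under 0.05, near the 21.1% of all RNAs. The pseudogene rows RN7SKP48 and RN7SKP80, outside that list, stood at a difference of 0. By the listed share of reads with 1 or more A, both 7SK rows were among the most adenylated with TOE1 present. There 4 rows were above RN7SK (RN7SL2, RN7SL1, AC078802.2 and SNORA67), 5 were above AL162581.1, and the median was 20.8%. Few reads on either row were listed with a U tail. Tails of 2 or more U were on 0 to 2 RN7SK reads a library, and 0 of 242 in TOE1-present replicate 1 allows up to 1.24%. In that library RN7SK reads held 24 U bases, with 0 reads listed with 1 or more U and 4 with both A and U. The limit thus holds for tails as listed, not for all tails with U.

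The table also holds rows for 7SK pseudogenes, copies of 7SK elsewhere in the genome, whose sequence parts from that of 7SK near their 3′ end. RN7SKP48 lies at chr4:85100496-85100823 on the plus strand (328 nt) and RN7SKP80 at chr22:42565048-42565330 on the minus strand (283 nt). Aligned to RefSeq 7SK, RN7SKP48 was 90.5% identical over 327 columns and RN7SKP80 96.3% over 269. They are shown beside 7SK because the point where each parts from it can be set against the tails counted on them; capitals mark the bases after the last shared one. The stretches are chr4:85100782-85100841 (plus strand) beside chr6:52995907-52995966, and chr22:42565042-42565101 (minus strand) beside chr6:52995850-52995909.
RN7SKP48: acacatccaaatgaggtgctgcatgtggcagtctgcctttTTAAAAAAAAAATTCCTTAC
7SK beside RN7SKP48: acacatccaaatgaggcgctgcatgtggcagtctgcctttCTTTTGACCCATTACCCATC
RN7SKP80: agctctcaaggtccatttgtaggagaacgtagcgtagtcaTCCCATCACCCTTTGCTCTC
7SK beside RN7SKP80: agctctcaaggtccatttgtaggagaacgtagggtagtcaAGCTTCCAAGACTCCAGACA

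The tails counted on these rows began at, or shortly before, the point where the shared sequence ends. The last shared base lies 2 nt before the annotated end of RN7SKP48, and its mean templated end lay between -2.0 and -1.93 nt in every library. For RN7SKP80 the last shared base lies 14 nt before the annotated end, and the mean templated end lay between -16.7 and -14.0 nt. The tails were long: RN7SKP48 reads had 3.11 to 4.01 untemplated nt and RN7SKP80 reads 12.8 to 16.8 nt, against 0.810 to 1.33 nt on RN7SK.

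The base content of the tails can be set beside what 7SK holds past that point. With TOE1 present, RN7SKP48 tails held 0.947 C, 2.32 U, 0.299 A and 0.00258 G per read, and the next 4 bases of 7SK hold 1 C and 3 U. RN7SKP80 tails of 15.4 nt held 4.63 A, 2.88 U, 5.39 C and 2.53 G per read, and the next 15 bases of 7SK hold 4 A, 3 U, 6 C and 2 G. In both rows the share of reads with an A tail is listed at 0 in the authors' deposited table although the tails hold A, and how that share treats tails of mixed bases is not given in the sources used here. Whether these reads came from 7SK or from the pseudogenes was not tested.

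**Figure D5:**
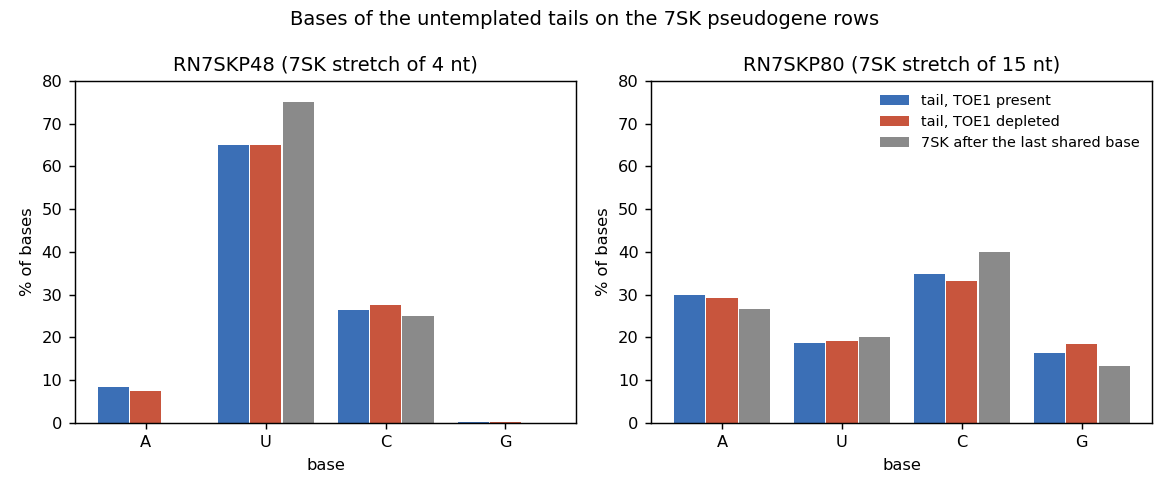
Bases of the untemplated tails (% of all tail bases, means of library values) on RN7SKP48 (left) and RN7SKP80 (right) with TOE1 present (blue) and depleted (red), beside the 7SK bases that follow the last shared base (grey, 4 nt and 15 nt). U is the commonest base on RN7SKP48 at 65.1% of the tail and 75% of the 7SK stretch, and C on RN7SKP80 at 34.9% and 40%.

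Reads on RN7SKP48 numbered 129, 55 and 85 in the TOE1-present libraries and 272, 80 and 202 in the TOE1-depleted ones. The log2 difference came to 0.14 ± 0.32 (SE; edgeR adjusted p = 0.875) under TMM and rested on the scaling. With library totals the row stood at 2260, 1590 and 2207 CPM against 3610, 2438 and 3474, and the difference was 0.67 ± 0.23 (SE; edgeR adjusted p = 0.0465). Under that scaling the groups did not overlap, as for 42.6% of RNAs in the same direction, and 30.7% of RNAs were called. RN7SKP80 had 20 to 59 reads a library and a log2 difference of 0.01 ± 0.25 (SE; edgeR adjusted p = 0.973), or 0.54 ± 0.28 with library totals (adjusted p = 0.146). Over the 6 libraries, Pearson r of log2 CPM with RN7SK was -0.70 for RN7SKP48 and -0.23 for RN7SKP80, as a description.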

How the data were processed

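Nascent small RNA 3′ ends were measured in 6 libraries, and samples were grouped by their titles. Per the submitters' processing notes, STAR 2.7.8a and hg38 were used; not given in the sources used here are the annotation, how reads that fit several models were treated, and whether molecular identifiers were counted. The authors deposited raw read counts per RNA and library. Per the file headers, they also deposited end positions (a window of -10 to 50 nt), tail bases in nt per read, tail shares as a fraction of reads and p-values, all per condition. The members and lists were chosen with earlier results of these data known.

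Counts were tested with edgeR 4.0.16 in R 4.3.3 (TMM, filterByExpr, quasi-likelihood, Benjamini-Hochberg over all RNAs tested); limma 3.58.1 and DESeq2 1.42.0 were alternatives. Deposited p-values were adjusted over all RNAs that have one, and 95% intervals of the differences were taken from the difference and its p. The deposited mean end is the total end: for AL162581.1, mean plus total-end difference times 6348 reads is whole to 4.29e-06, and with the templated difference it is 0.161 off.

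Library values of RN7SK, RN7SKP48 and RN7SKP80 were recovered from the deposited means. Each mean is the average over 3 libraries of a whole number over that library's deposited reads. For each measure exactly 1 set of whole numbers gave the control mean, the difference and the p, and total end equalled templated end plus tail bases in 6 of 6 libraries. AL162581.1 has 1 library a group, so its values are direct. The search and the count test were tested on simulated data. Recovered values were compared by exact 2-sided permutation over 20 splits.

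Sequences came from hg38 and RefSeq tables; pseudogenes were aligned with Biopython 1.88 (match 1, mismatch -1, gap -2, extension -1). Rows named were both 7SK rows, the 7SK pseudogene rows, the other RNA polymerase III rows, the 3 rows most like each 7SK row in log2 CPM among those of 100 or more reads, rows confined to or missing from replicate 1, and any row a count turned on. Replicate numbers pair the libraries by the rule used, since deviations from the group means correlated at 0.932, 0.497 and 0.844 over 102 RNAs; without the 7SK, RMRP and AC024051.4 rows the values were 0.0228, 0.00525 and 0.144.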

Additional observations from a re-analysis of the deposited data

How the results depend on the processing

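The RN7SK abundance difference kept its direction in all 13 alternatives and missed the threshold in 9. It passed with DESeq2 (log2 -0.77, adjusted p 0.00316), with DESeq2 size factors in edgeR (-0.72, adjusted p 0.0277), without replicate 1 of both groups (-0.73, adjusted p 0.0140) and with the replicate block (-0.68, adjusted p 0.0150). Without replicate 1 of both groups, the TOE1-present libraries are AG10 and the TOE1-depleted ones AG11, so condition and adaptor cannot be told apart. The block takes same-numbered libraries as pairs, which their deviations hardly showed without the 7SK, RMRP and AC024051.4 rows. Leaving out 1 library gave -0.82 to -0.56 (edgeR adjusted p 0.0799 to 0.164). Of all RNAs, 8 of 101 passed in edgeR, against 15 of 139 in DESeq2, 12 with DESeq2 size factors, 31 with library totals, 5 of 142 with no filter, 12 without replicate 1 of both groups, 0 in the AG10 libraries, 0 to 2 without 1 library and 18 with the block. Summed 7SK was 0.35 with library totals, -0.73 without replicate 1 of both groups and 1.44 in the AG10 libraries; leaving out 1 library gave -3.09 to 2.35. The block gave -0.46 for it (edgeR adjusted p 0.360). AL162581.1 abundance was 0.44 with library totals, -0.0028 with DESeq2, 0.048 with no filter and 1.67 in the AG10 libraries; leaving out 1 library gave -0.52 to 0.75, and its other alternatives, the block among them, gave no value. Library-level alternatives on recovered ends and tails, and library totals for the pseudogene rows, were chosen after seeing the data. Among the 7 that change the libraries, the templated end ran from 0.00237 to 0.132 nt around 0.0651 nt, and the total end from -0.0239 to 0.333 nt around 0.142 nt; the other alternatives use the same difference or the other end measure, and say nothing of direction. The share of 2 or more A was 0.811 points in the AG10 libraries and -1.47 to 1.30 points without 1 library. The replicate block leaves these mean differences as they are, and its exact sign-flip test over 3 pairs cannot go below 0.25; the templated end, 3 or more A, and A and U were above 0 in 3 of 3 pairs, at that limit. The Kolmogorov-Smirnov alternative for tail shares was not run, since the table gives none for them. RN7SK holds 195 to 271 reads a library, which limits shares to within several points.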
